A study of Homo sapiens with 20 samples.

Results

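The genes described here encode the coats and cargo receptors that carry proteins between the endoplasmic reticulum (ER) and the Golgi apparatus. They were taken as a list of 37 gene symbols, comprising the COPII coat with its GTPases, the COPI coat with ARF GTPases and the GTPase-activating protein ARFGAP3, the p24 (TMED) cargo adaptors, the KDEL receptors, and lectin cargo receptors with a SNARE. A gene was measured through the probe sets annotated to it alone, and 35 of the 37 had such a probe set, among 19775 genes in all. TMED7 lay only on probe sets that name several genes, and KDELR2 was not analysed here. The 35 genes had 85 probe sets between them, and the brightest over all arrays stood for each gene.

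Gene expression was measured on 20 Affymetrix 3′ arrays in 3 experiments on human prostate cancer cell lines. LNCaP is an androgen-responsive line from a prostate cancer metastasis, and C42B is a castration-resistant line derived from it. The androgen experiment had 4 arrays per group: C42B cells first spent 72 h in RPMI with 10% CSS, a serum stripped of steroids by charcoal, and were then left for 16 h with 100 nM DHT (the androgen dihydrotestosterone) or with an equal volume of ethanol, the vehicle. The siRNA experiments had 3 arrays per group. C42B cells were exposed to siRNA for 6 h and harvested after 96 h in RPMI with 10% CSS. LNCaP cells were transfected at 50 nM and harvested after 96 h in RPMI with 10% FBS, unstripped serum. The siRNA was labelled siLSD1, against the histone demethylase LSD1 encoded by KDM1A, or siNTC, the control. The labels give 1 siLSD1 name per line with no sequence. Replicates in C42B came from different wells, and each in LNCaP pooled 2 wells. Whether the cultures were independent is not said, so the p-values reflect only how far these samples spread, which may be technical. The siRNA experiments thus differed in serum as well as in cell line, and both C42B control groups were in steroid-poor serum.

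Secreted and membrane proteins leave the ER in vesicles that the COPII coat shapes. The GTPase SAR1 recruits an inner layer of SEC23 and SEC24, in which SEC24 binds the cargo, and then an outer cage of SEC13 and SEC31. The COPI coat, or coatomer, is recruited by ARF GTPases and returns escaped ER proteins and cargo receptors from the Golgi. The p24 proteins, the lectin LMAN1 with its partner MCFD2, and the KDEL receptors link cargo to these coats. Prostate luminal cells are secretory and release large amounts of protein such as KLK3 (prostate-specific antigen), whose gene is a standard target of the androgen receptor. LSD1 is known as a coregulator of that receptor, and the study's design asked what changes with less LSD1 and with androgen.

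KDM1A changed with siLSD1 by -2.40 on the log2 scale in C42B (7.88 ± 0.12 against 10.29 ± 0.08, mean ± SD) and by -2.78 in LNCaP (7.30 ± 0.09 against 10.08 ± 0.14), with every siLSD1 array below every siNTC array. With DHT, KLK3 rose by 2.74, FKBP5 by 3.12 and TMPRSS2 by 3.08 on the log2 scale. With siLSD1, KLK3 rose by 0.40 in C42B and 0.36 in LNCaP, and TMPRSS2 by 0.77 in each line. FKBP5 differed by 0.09 with siLSD1 in C42B and by -0.37 in LNCaP. The 10 prostate luminal markers measured were bright (log2 mean of at least 6) in all 6 groups. Of 11 measured markers of leukocytes, endothelium and stroma, 4 or 5 were bright per group, with group medians of 5.56 to 5.89. COL1A1 was the highest, and the endothelial PECAM1 (6.1 to 7.3) and VWF (6.4 to 7.7) were also bright in all 6 groups. The leukocyte marker CD3E was bright only with DHT (7.0) and vehicle (6.9), and the stromal DCN only with DHT (6.1). PTPRC, CD14, CDH5, COL1A2 and LUM were dim in all groups. The stromal collagen COL3A1 averaged 5.60 with DHT against 7.20 with vehicle, 6.69 with siLSD1 against 6.96 with siNTC in C42B, and 6.14 against 6.91 in LNCaP, and its part in the results was not tested. Array medians were 63.3 to 65.1 intensity units in LNCaP, 78.4 to 81.2 in the C42B siRNA experiment and 84.1 to 86.1 in the androgen experiment, so levels are compared only within an experiment. The log2 difference between 3′ and 5′ actin controls, a sign of RNA quality, was 0.91 to 1.16 with DHT and 0.90 to 1.12 with vehicle. It was 1.17 to 1.31 with siLSD1 against 1.13 to 1.19 with siNTC in C42B, and 0.93 to 1.09 against 0.82 to 0.98 in LNCaP. The same difference for GAPDH was 0.22 to 0.26 with siLSD1 against 0.24 to 0.30 with siNTC in C42B, and 0.20 to 0.22 against 0.21 to 0.26 in LNCaP. With siLSD1 the actin ranges thus lay somewhat higher and the GAPDH ranges somewhat lower, and they overlapped. With DHT the GAPDH difference was 0.05 to 0.07 against 0.04 to 0.06. The part of these differences in the results was not tested.

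In C42B cells given DHT, 30 of the 35 coat and cargo genes rose and 1 fell at an adjusted p under 0.05 (limma, two-sided, Benjamini-Hochberg over all genes). Over all 19775 genes, 13.4% rose and 19.4% fell. In all 3 comparisons none of the 35 genes was dim (group mean under 6), while all genes include dim ones. The share called among bright genes alone is not given here. The list was also chosen with earlier results of these data known. With DHT the median change of the 35 genes was 0.32 on the log2 scale, against 0.013 over all genes, and the changes ran from -0.35 to 1.45. The largest rises were in SEC24D, a cargo-binding COPII subunit (2.72-fold), TMED9, a p24 adaptor (1.85-fold), and MCFD2, the partner of the lectin LMAN1 (1.75-fold). The inner coat subunit SEC23A was the one gene that fell, and SEC23IP, COPG2, COPZ1 and SEC22B did not pass. In 29 genes every DHT array lay above every vehicle array, as in 14% of all genes, and in SEC23A every one lay below, as in 20.6% of all genes. In bulk RNA, a change in the make-up of a culture and a change in RNA per cell cannot be told apart. When each array was centred on its own median, 31 of the genes rose and 1 fell, and over all genes 22.9% rose and 14% fell, so that 62% of all calls were rises against 40.9% without centring.

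With siLSD1 in C42B, 14 of the 35 genes rose and none fell, where 8.66% of all genes rose and 9.39% fell. At an unadjusted p under 0.05, 1 of the 35 was lower, and with all 20 arrays in 1 limma fit 1 (ARF1) fell. The median change was 0.12 on the log2 scale against -0.017 over all genes. SEC24D again changed most (2.17-fold), followed by ARFGAP3, which switches off ARF1 on COPI membranes (1.46-fold), and the inner coat subunits SEC23B (1.33-fold) and SEC24A (1.31-fold). Of the 35 genes, 19 had every siLSD1 array above every siNTC array and 3 had every one below, as did 16.3% and 19.9% of all genes. The number that rose depended on single arrays: 13 without siLSD1 replicate 1, 7 without siLSD1 replicate 2, 5 without siLSD1 replicate 3, and 9, 8 and 7 without siNTC replicates 1, 2 and 3. SEC24A, SEC24D, SEC31A, ARFGAP3 and TMED9 passed in each of these. Quantile normalization ended the calls of COPZ1 and TMED10, and median centring that of COPZ1.

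With siLSD1 in LNCaP, 12 genes rose and 1 fell, where 13.4% of all genes rose and 12.5% fell. The median change was 0.15 on the log2 scale, against 0.011 over all genes. The largest changes were ARFGAP3 (1.48-fold), SEC31A of the outer COPII cage (1.34-fold), SEC24D (1.33-fold) and COPE, a coatomer subunit (1.32-fold). The coatomer subunit COPB2 fell, to 0.817 of its siNTC level. In 18 genes all siLSD1 arrays lay above all siNTC arrays and in 3 all lay below, as in 20.6% and 19.5% of all genes. The count of rises was 7 without siLSD1 replicate 2 or replicate 3 and 9 or 10 without any other array. When each array was centred on its own median, 9 genes rose and 2 fell: SEC24C, COPG1 and KDELR1 no longer passed, and SAR1A passed as a fall. Over all genes, 11.5% rose and 14.4% fell with this centring, against 13.4% and 12.5% without it.

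**Figure D1:**
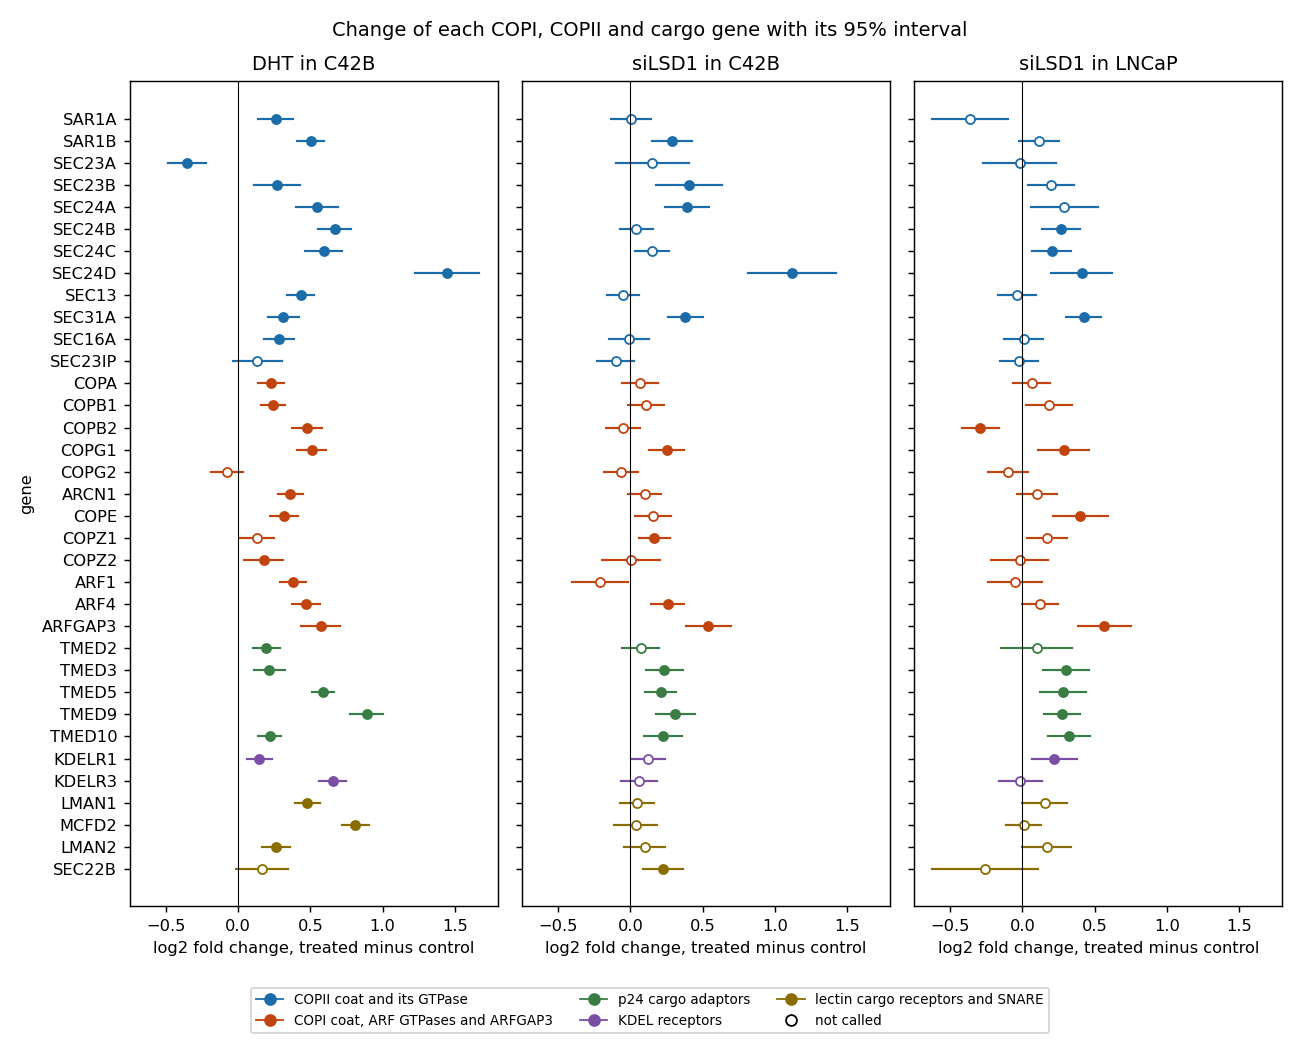
Log2 fold change (treated minus control, x axis) of each of the 35 genes (y axis) with its 95% interval, in the 3 comparisons; filled points passed an adjusted p of 0.05 and colour gives the role. With DHT nearly all points lie right of 0 and SEC24D is farthest right at 1.45; with siLSD1 the shifts are smaller and SEC24D stands at 1.12 in C42B and 0.41 in LNCaP.

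**Figure D2:**
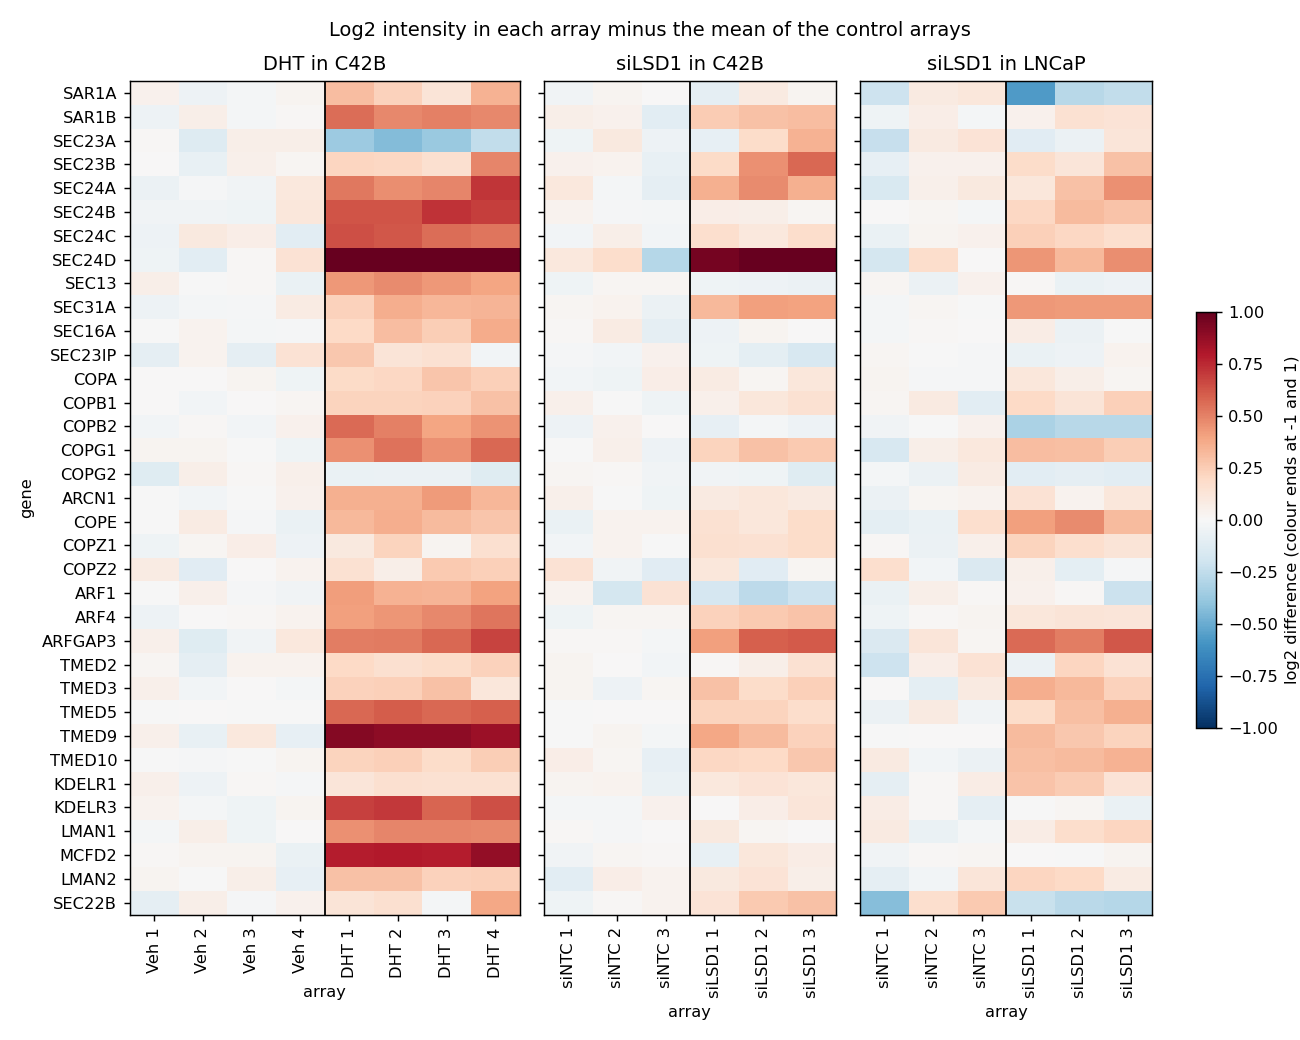
Log2 intensity of each gene (rows) in each array (columns) minus the mean of that experiment's control arrays, with colours ending at -1 and 1. The 4 DHT columns are red in all rows but SEC23A, COPG2 and a few pale ones, while the siLSD1 columns show SEC24D, ARFGAP3 and SEC31A in red in both lines.

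**Figure D3:**
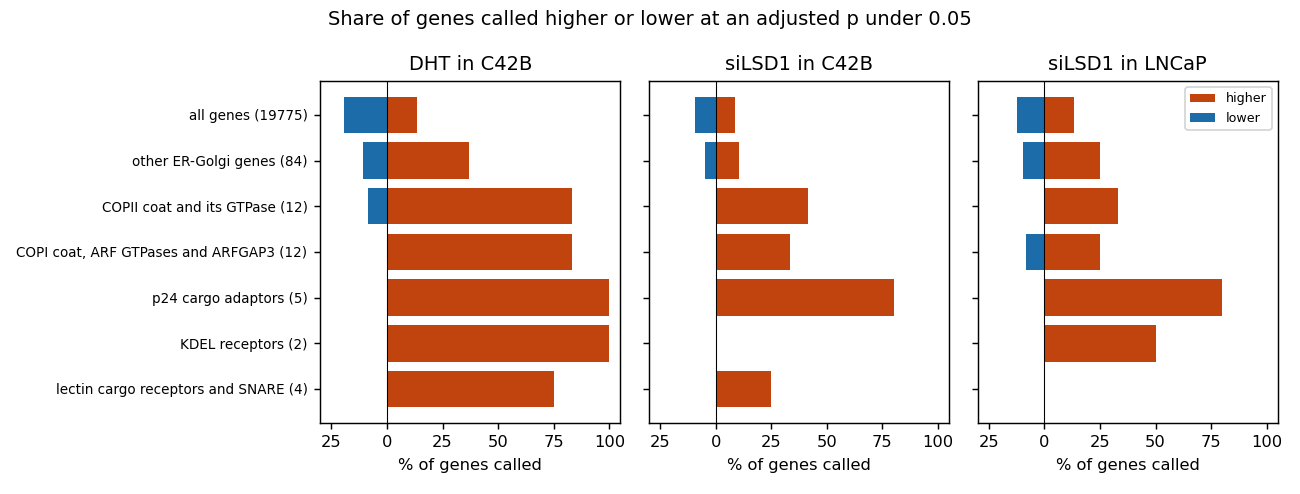
Percent of genes called higher (right) or lower (left) in each comparison (x axis) for all genes, the other ER-Golgi genes and each role, with the number of genes in brackets. With DHT the p24 adaptors and KDEL receptors reach 100% higher against 13.4% of all genes; with siLSD1 the p24 adaptors stand at 80% in both lines.

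Promoter sequences were available for 32 of the 35 measured genes (RefSeq, GRCh38.p14; 250 bases before to 50 after the first start listed), all but SEC24D, ARF4 and TMED9. They were searched on both strands for 5 motifs known from the ER and Golgi stress responses and from androgen signalling. The Golgi stress element, with the core ACGTGGC, occurred in 15 of the 32 (46.9%), against 3.3% of all 27305 promoters in the table and 4.36% of those of bright genes. TGACGTG, the core of the unfolded protein response element (UPRE), occurred in 10 (31.2%), against 2% of all promoters and 2.42% of those of bright genes. The motifs share the letters ACGTG and can overlap: 7 genes held both and 5 of them in the overlapping form TGACGTGGC, so the counts are not independent. The ER stress elements ERSE and ERSE-II and the palindromic androgen response element were in none of the 32, and in 22, 15 and 1 of all promoters. A match is a match of letters and not a measured site.

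The stretches below show the forms that recur, from 6 genes that rose with DHT. Each is read 5′ to 3′ on the strand of its gene, lies upstream of the start, and has the matches in capitals.
SEC24A, chr5:134648586-134648767, plus strand: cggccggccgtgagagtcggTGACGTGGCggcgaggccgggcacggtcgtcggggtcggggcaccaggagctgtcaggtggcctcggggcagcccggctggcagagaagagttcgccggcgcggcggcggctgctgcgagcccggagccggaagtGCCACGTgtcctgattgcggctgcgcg
KDELR3, chr22:38468029-38468077, plus strand: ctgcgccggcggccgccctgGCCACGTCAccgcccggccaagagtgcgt
ARF1, chr1:228082672-228082707, plus strand: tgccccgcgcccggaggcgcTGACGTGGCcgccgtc
COPB2, chr3:139389739-139389862, minus strand: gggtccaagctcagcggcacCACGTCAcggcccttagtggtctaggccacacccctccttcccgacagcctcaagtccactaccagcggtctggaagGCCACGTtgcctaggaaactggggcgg
SEC31A, chr4:82900593-82900639, minus strand: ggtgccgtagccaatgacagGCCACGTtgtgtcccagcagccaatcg
COPG1, chr3:129249578-129249605, plus strand: cctgcgcagagcgctgggcgACGTGGCc

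SEC24A carries the overlapping form and a second Golgi stress element on the other strand, ARF1 and KDELR3 carry the overlapping form once, and COPB2 carries both cores apart. With DHT, 14 of the 15 genes with the Golgi stress element rose and 1, SEC23A, fell (median change 0.36), and of the 17 without it 13 rose (median 0.26). With siLSD1 in C42B, 4 of the 15 with it rose, against 7 of the 17 without it. In LNCaP the numbers were 4 of 15, with 1 that fell, against 6 of 17. For the UPRE core, 9 of the 10 genes with it rose with DHT and 1 fell, against 18 of the 22 without it that rose. With siLSD1 in C42B, 1 of 10 with the UPRE core rose, against 10 of 22 without it. The LNCaP numbers for the UPRE core were 1 of 10, with 1 that fell, against 9 of 22. These splits are given as counts, with no test. Over all genes, 13.4% rose and 19.4% fell with DHT. With siLSD1, 8.66% rose and 9.39% fell in C42B, and 13.4% rose and 12.5% fell in LNCaP. The 1 of 10 genes with the UPRE core that rose in each line was thus near the share of all genes.

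Among the COPII genes, 10 of 12 (83.3%) rose and 1 (8.33%) fell with DHT, 5 (41.7%) rose with siLSD1 in C42B and 4 (33.3%) in LNCaP. Over all genes, 13.4% rose and 19.4% fell with DHT, and 8.66% and 13.4% rose with siLSD1 in C42B and LNCaP. Levels from here on are log2 intensities, and changes are log2 differences ± SE. SEC24D, which binds cargo in the COPII inner coat, was 8.19, 8.13, 8.24 and 8.38 on the log2 scale with vehicle and 9.52, 9.54, 9.69 and 9.96 with DHT, a change of 1.45 ± 0.10 (SE; adjusted p = 3.6e-06). SEC24D in C42B was 8.28, 8.35 and 7.88 with siNTC and 9.13, 9.40 and 9.35 with siLSD1, a change of 1.12 ± 0.13 (SE; adjusted p = 0.0017). SEC24D in LNCaP was 7.70, 8.05 and 7.88 with siNTC and 8.31, 8.20 and 8.34 with siLSD1, a change of 0.41 ± 0.09 (SE; adjusted p = 0.012). In each experiment every treated array lay above every control array, with the narrowest gap in LNCaP (8.05 against 8.20), where the call was lost without siLSD1 replicate 3 (adjusted p = 0.053). SEC24C, the paralog closest to SEC24D, was 9.41, 9.55, 9.53 and 9.35 with vehicle and 10.10, 10.08, 10.02 and 10.00 with DHT, a change of 0.59 ± 0.06 (SE; adjusted p = 3.2e-05). SEC24C in C42B was 9.62, 9.71 and 9.63 with siNTC and 9.82, 9.76 and 9.84 with siLSD1, a difference of 0.15 ± 0.05 that did not pass. SEC24C in LNCaP was 10.32, 10.42 and 10.43 with siNTC and 10.63, 10.60 and 10.56 with siLSD1, a change of 0.20 ± 0.06 (SE; adjusted p = 0.035). Its groups did not overlap in any experiment, but in LNCaP the call was lost without any 1 of the 6 arrays (adjusted p = 0.059 to 0.11).

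SEC24A and SEC24B form the other pair of cargo-binding paralogs. SEC24A was 10.15, 10.20, 10.18 and 10.32 with vehicle and 10.74, 10.68, 10.70 and 10.93 with DHT, a change of 0.55 ± 0.06 (SE; adjusted p = 1.4e-04). SEC24A in C42B was 10.18, 10.06 and 9.99 with siNTC and 10.43, 10.55 and 10.43 with siLSD1, a change of 0.39 ± 0.07 (SE; adjusted p = 0.0069). SEC24A in LNCaP was 9.63, 9.83 and 9.88 with siNTC and 9.89, 10.07 and 10.24 with siLSD1, and this difference of 0.29 ± 0.10 did not pass. All treated arrays were above all controls in the 3 experiments, though in LNCaP the groups nearly met (9.88 against 9.89). SEC24B was 10.57, 10.57, 10.56 and 10.72 with vehicle and 11.23, 11.23, 11.33 and 11.30 with DHT, a change of 0.67 ± 0.05 (SE; adjusted p = 6.7e-06). SEC24B in C42B was 10.16, 10.11 and 10.10 with siNTC and 10.19, 10.18 and 10.14 with siLSD1, a difference of 0.04 ± 0.05, with overlapping groups. SEC24B in LNCaP was 10.61, 10.62 and 10.58 with siNTC and 10.81, 10.92 and 10.89 with siLSD1, a change of 0.27 ± 0.06 (SE; adjusted p = 0.0094). SEC24A in LNCaP did pass under 6 other ways of processing the arrays (adjusted p = 0.0021 to 0.048) and without siLSD1 replicate 1 (0.033). Of its other probe sets there, one rose by 0.76 ± 0.07 (7.07 against 6.31). The other, which was brighter (8.13 against 8.12), differed by 0.01 ± 0.07 and did not pass. The difference between the lines, C42B minus LNCaP, was 0.10 ± 0.13 for SEC24A and did not pass. For SEC24B it was -0.23 ± 0.07 (adjusted p = 0.053), and it passed with the probe set mean, with bright genes only, with trend and robust, and without LNCaP siLSD1 replicate 1 (adjusted p = 0.020 to 0.040).

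SEC23A and SEC23B, the alternative SEC23 subunits, which speed GTP hydrolysis by SAR1, parted under DHT. SEC23A was 12.03, 11.89, 12.08 and 12.08 with vehicle and 11.66, 11.59, 11.65 and 11.77 with DHT, a change of -0.35 ± 0.06 (SE; adjusted p = 0.0012). All 4 DHT arrays lay below all vehicle arrays. SEC23A differed by 0.15 ± 0.11 with siLSD1 in C42B and by -0.02 ± 0.11 in LNCaP, with overlapping groups and no call in either. SEC23B was 11.84, 11.76, 11.88 and 11.85 with vehicle and 12.05, 12.04, 11.99 and 12.32 with DHT, a change of 0.27 ± 0.07 (SE; adjusted p = 0.016). SEC23B in C42B was 11.26, 11.25 and 11.14 with siNTC and 11.41, 11.67 and 11.79 with siLSD1, a change of 0.41 ± 0.10 (SE; adjusted p = 0.026). SEC23B in LNCaP was 11.51, 11.63 and 11.63 with siNTC and 11.77, 11.71 and 11.88 with siLSD1, a difference of 0.20 ± 0.07 that did not pass. The SEC23B groups did not overlap in any experiment, but the siLSD1 arrays in C42B spread from 11.41 to 11.79 and the call was lost without siLSD1 replicate 2 or 3 or siNTC replicate 1, 2 or 3 (adjusted p = 0.064 to 0.089).

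**Figure D4:**
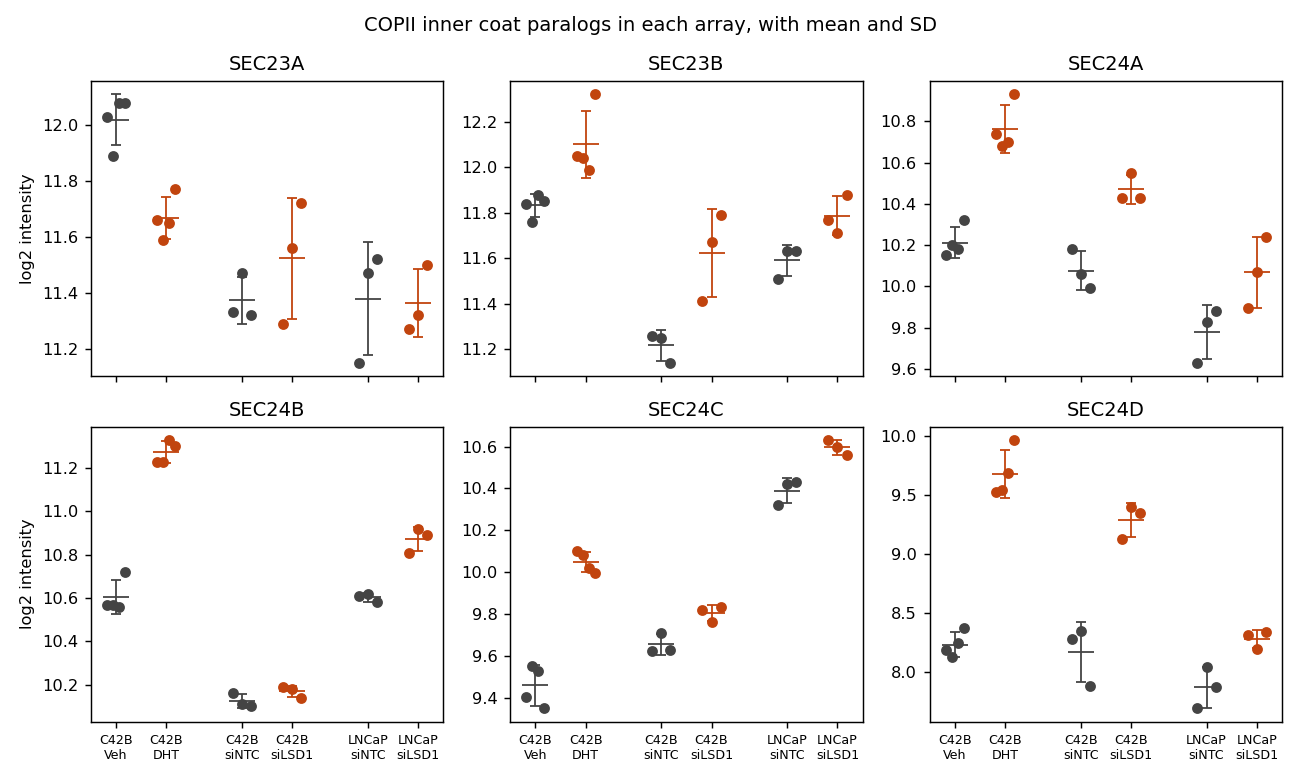
Log2 intensity (y axis) of the 6 SEC23 and SEC24 genes in each array (points), with group mean and SD (bars), for the 6 groups along the x axis; levels are comparable only within an experiment. SEC24D separates treated from control in all 3 experiments, and SEC23A is the panel in which the DHT arrays, at 11.59 to 11.77, lie below the vehicle arrays.

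SEC31A forms the outer COPII cage with SEC13. SEC31A was 11.62, 11.65, 11.66 and 11.75 with vehicle and 11.90, 12.03, 12 and 12.01 with DHT, a change of 0.31 ± 0.05 (SE; adjusted p = 6.2e-04). SEC31A in C42B was 11.55, 11.56 and 11.47 with siNTC and 11.85, 11.94 and 11.93 with siLSD1, a change of 0.38 ± 0.05 (SE; adjusted p = 0.0034). SEC31A in LNCaP was 11.22, 11.26 and 11.23 with siNTC and 11.67, 11.66 and 11.66 with siLSD1, a change of 0.42 ± 0.05 (SE; adjusted p = 6.0e-04). Its arrays were tightly grouped in LNCaP, and no groups overlapped in any experiment. SEC13 rose with DHT by 0.43 ± 0.04 and differed by -0.05 ± 0.05 and -0.04 ± 0.06 with siLSD1 in C42B and LNCaP. SAR1B, one of the SAR1 GTPases that start coat assembly, was 11.44, 11.55, 11.47 and 11.50 with vehicle and 12.05, 11.97, 11.99 and 11.97 with DHT, a change of 0.50 ± 0.04 (SE; adjusted p = 1.3e-05). SAR1B in C42B was 11.35, 11.34 and 11.19 with siNTC and 11.55, 11.59 and 11.60 with siLSD1, a change of 0.29 ± 0.06 (SE; adjusted p = 0.015). SAR1B in LNCaP was 11.16, 11.27 and 11.19 with siNTC and 11.25, 11.36 and 11.34 with siLSD1, a difference of 0.11 ± 0.06 with overlapping groups. With siLSD1 in C42B its groups were clear of each other, but the call was lost without siLSD1 replicate 2 or 3 (adjusted p = 0.057 to 0.064).

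SAR1A, the paralog of SAR1B, rose with DHT by 0.26 ± 0.05 and differed by 0.00 ± 0.06 with siLSD1 in C42B. In LNCaP it was lower on every siLSD1 array, by -0.36 ± 0.11, and just missed the threshold (adjusted p = 0.0502). SAR1A passed as a fall there under 7 other ways of processing the arrays (adjusted p = 0.0015 to 0.044) and in both of its other probe sets. SEC16A, which scaffolds ER exit sites, rose with DHT by 0.28 ± 0.05. SEC23IP, which binds SEC23 at those sites, did not pass in any comparison, with 0.13 ± 0.08 for DHT. Neither passed with siLSD1, where SEC16A differed by -0.01 ± 0.06 in C42B and 0.01 ± 0.06 in LNCaP.

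Of the 9 coatomer genes, 7 (77.8%) rose with DHT and 2 (22.2%) with siLSD1 in C42B, against 13.4% and 8.66% of all genes. In LNCaP 2 (22.2%) rose and 1 (11.1%) fell, not far from the 13.4% and 12.5% of all genes. COPG1, a gamma subunit, was 11.25, 11.25, 11.22 and 11.18 with vehicle and 11.68, 11.77, 11.68 and 11.80 with DHT, a change of 0.51 ± 0.04 (SE; adjusted p = 2.0e-05). COPG1 in C42B was 11.52, 11.57 and 11.47 with siNTC and 11.74, 11.81 and 11.78 with siLSD1, a change of 0.25 ± 0.05 (SE; adjusted p = 0.015). COPG1 in LNCaP was 9.05, 9.26 and 9.31 with siNTC and 9.52, 9.51 and 9.45 with siLSD1, a change of 0.29 ± 0.08 (SE; adjusted p = 0.028). The groups were separate in all 3 experiments; the call was lost without siLSD1 replicate 2 or 3 or siNTC replicate 3 (adjusted p = 0.052 to 0.064) in C42B, and the call was lost without siLSD1 replicate 1, 2 or 3 (adjusted p = 0.063 to 0.087) in LNCaP. COPG2, the alternative gamma subunit, did not pass anywhere, with -0.08 ± 0.05 for DHT. COPE, the epsilon subunit, was 10.88, 10.97, 10.87 and 10.82 with vehicle and 11.21, 11.25, 11.20 and 11.16 with DHT, a change of 0.32 ± 0.04 (SE; adjusted p = 4.1e-04). COPE in C42B was 11.58, 11.68 and 11.68 with siNTC and 11.80, 11.76 and 11.83 with siLSD1, a difference of 0.15 ± 0.05 that did not pass. COPE in LNCaP was 10.74, 10.77 and 11.01 with siNTC and 11.25, 11.31 and 11.16 with siLSD1, a change of 0.40 ± 0.08 (SE; adjusted p = 0.0083). Every treated COPE array was above every control array, although siNTC replicate 3 in LNCaP stood well above the other siNTC arrays.

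COPB2, the beta-prime subunit, which reads the retrieval signals of returning ER proteins, rose with DHT and fell with siLSD1 in LNCaP. COPB2 was 11.68, 11.72, 11.68 and 11.75 with vehicle and 12.27, 12.21, 12.10 and 12.16 with DHT, a change of 0.48 ± 0.05 (SE; adjusted p = 4.0e-05). COPB2 in C42B was 11.51, 11.61 and 11.57 with siNTC and 11.48, 11.54 and 11.51 with siLSD1, a difference of -0.05 ± 0.05 with overlapping groups. COPB2 in LNCaP was 11.09, 11.12 and 11.17 with siNTC and 10.81, 10.85 and 10.85 with siLSD1, a change of -0.29 ± 0.05 (SE; adjusted p = 0.0051). The DHT arrays were all above, and the LNCaP siLSD1 arrays all below, their controls. With the mean of its probe sets, the fall in LNCaP was -0.17 and did not pass (adjusted p = 0.059).

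COPA, COPB1 and ARCN1, the alpha, beta and delta subunits, rose with DHT by 0.23 ± 0.04, 0.24 ± 0.04 and 0.36 ± 0.04, each with separate groups. With the mean of all probe sets, COPA (0.16, adjusted p = 0.061) and COPB1 (0.088, adjusted p = 0.20) no longer passed. COPZ2, a zeta subunit, passed with DHT at 0.18 ± 0.06 (adjusted p = 0.049) with overlapping groups, and the call was lost without DHT replicate 1, 3 or 4 or vehicle replicate 2, 3 or 4 (adjusted p = 0.075 to 0.12). COPZ1, the other zeta subunit, did not pass with DHT (0.13 ± 0.05), although it passed there under 4 other ways of processing the arrays (adjusted p = 0.0079 to 0.030), without DHT replicate 3 (0.046) and in its second probe set (0.20 ± 0.05). COPZ1 rose with siLSD1 in C42B by 0.17 ± 0.05, and the call was lost without any 1 of the 6 arrays (adjusted p = 0.064 to 0.15). In LNCaP, COPZ1 differed by a similar 0.17 ± 0.06 and did not pass (adjusted p = 0.071). COPA, COPB1 and ARCN1 ranged from 0.06 to 0.18 with siLSD1 over both lines, with no call. COPB1 did pass in LNCaP under 4 other ways of processing the arrays (adjusted p = 0.0078 to 0.0499) and in its second probe set (0.19 ± 0.06).

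Both ARF genes and ARFGAP3, which set the cycle of COPI assembly and release, rose with DHT. ARFGAP3, which stimulates GTP hydrolysis by ARF1, was 11.81, 11.64, 11.72 and 11.86 with vehicle and 12.27, 12.28, 12.33 and 12.43 with DHT, a change of 0.57 ± 0.06 (SE; adjusted p = 6.8e-05). ARFGAP3 in C42B was 11.33, 11.33 and 11.30 with siNTC and 11.73, 11.92 and 11.93 with siLSD1, a change of 0.54 ± 0.07 (SE; adjusted p = 0.002). ARFGAP3 in LNCaP was 10.11, 10.38 and 10.28 with siNTC and 10.82, 10.77 and 10.88 with siLSD1, a change of 0.57 ± 0.08 (SE; adjusted p = 0.0011). The 3 changes were close in size, the groups never overlapped, and the call held without any single array and in the other fits of each comparison. ARF4, a small GTPase of the early Golgi, was 13.24, 13.29, 13.30 and 13.32 with vehicle and 13.70, 13.73, 13.77 and 13.82 with DHT, a change of 0.47 ± 0.04 (SE; adjusted p = 2.4e-05). ARF4 in C42B was 13.18, 13.25 and 13.25 with siNTC and 13.46, 13.49 and 13.51 with siLSD1, a change of 0.26 ± 0.05 (SE; adjusted p = 0.011). ARF4 in LNCaP was 12.89, 12.94 and 12.96 with siNTC and 13.04, 13.06 and 13.05 with siLSD1, a difference of 0.12 ± 0.05 that did not pass. No ARF4 groups overlapped, but in C42B the call was lost without siLSD1 replicate 3 (adjusted p = 0.051). ARF1, which recruits coatomer, rose with DHT by 0.38 ± 0.04. With siLSD1, ARF1 differed by -0.21 ± 0.08 in C42B and -0.05 ± 0.08 in LNCaP and did not pass; it passed as a fall in C42B without siNTC replicate 2 (-0.30, adjusted p = 0.035) and when all 20 arrays were fitted together (adjusted p = 0.045).

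The p24 adaptors are membrane proteins that help sort cargo at both coats. The 5 in the list and measured (TMED2, TMED3, TMED5, TMED9 and TMED10) rose with DHT, and these but TMED2 rose with siLSD1 in both lines. Of all genes, 13.4% rose with DHT, 8.66% with siLSD1 in C42B and 13.4% in LNCaP. Of the p24 family genes outside the list, TMED1 rose with DHT (0.24 ± 0.04), as did TMED6 (0.18 ± 0.05), while TMED4 (-0.30 ± 0.04) and TMED8 (-0.15 ± 0.05) fell. With siLSD1 TMED4 rose in C42B (0.22 ± 0.05), TMED8 fell in C42B and LNCaP (-0.31 ± 0.05 and -0.24 ± 0.06), and TMED1 and TMED6 did not pass in either line. TMED9 was 11.58, 11.46, 11.64 and 11.45 with vehicle and 12.45, 12.43, 12.43 and 12.39 with DHT, a change of 0.89 ± 0.05 (SE; adjusted p = 1.0e-06). TMED9 in C42B was 11.37, 11.40 and 11.35 with siNTC and 11.76, 11.69 and 11.60 with siLSD1, a change of 0.31 ± 0.06 (SE; adjusted p = 0.0096). TMED9 in LNCaP was 11.41, 11.42 and 11.42 with siNTC and 11.73, 11.69 and 11.64 with siLSD1, a change of 0.27 ± 0.05 (SE; adjusted p = 0.0069). The DHT change was about 3 times the siLSD1 changes on the log2 scale, and the groups were separate throughout. TMED5 was 12.11, 12.12, 12.11 and 12.11 with vehicle and 12.69, 12.72, 12.69 and 12.71 with DHT, a change of 0.59 ± 0.03 (SE; adjusted p = 1.1e-06). TMED5 in C42B was 11.90, 11.91 and 11.91 with siNTC and 12.13, 12.13 and 12.08 with siLSD1, a change of 0.21 ± 0.05 (SE; adjusted p = 0.02). TMED5 in LNCaP was 11.51, 11.66 and 11.53 with siNTC and 11.75, 11.87 and 11.92 with siLSD1, a change of 0.28 ± 0.07 (SE; adjusted p = 0.02). The 8 arrays of the androgen experiment were very even within their groups, and no groups overlapped; the call was lost without siLSD1 replicate 2 or 3 or siNTC replicate 1, 2 or 3 (adjusted p = 0.055 to 0.079) in C42B, and the call was lost without siLSD1 replicate 2 or 3 or siNTC replicate 3 (adjusted p = 0.064 to 0.08) in LNCaP. With the mean of its probe sets, the TMED5 change was 0.055 in C42B (adjusted p = 0.43) and 0.011 in LNCaP (adjusted p = 0.91).

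TMED10, the p24 family member that pairs with TMED2, was 12.95, 12.94, 12.95 and 12.98 with vehicle and 13.18, 13.19, 13.14 and 13.20 with DHT, a change of 0.22 ± 0.04 (SE; adjusted p = 0.0012). TMED10 in C42B was 12.52, 12.47 and 12.37 with siNTC and 12.66, 12.65 and 12.72 with siLSD1, a change of 0.23 ± 0.06 (SE; adjusted p = 0.03). TMED10 in LNCaP was 12.36, 12.24 and 12.21 with siNTC and 12.57, 12.59 and 12.62 with siLSD1, a change of 0.32 ± 0.06 (SE; adjusted p = 0.0057). Its groups did not overlap, and the call was lost without siLSD1 replicate 2 or 3 or siNTC replicate 2 or 3 (adjusted p = 0.075 to 0.11) in C42B. TMED3 was 11.83, 11.75, 11.78 and 11.76 with vehicle and 12.01, 12.02, 12.07 and 11.89 with DHT, a change of 0.22 ± 0.05 (SE; adjusted p = 0.0062). TMED3 in C42B was 12, 11.92 and 11.99 with siNTC and 12.26, 12.15 and 12.21 with siLSD1, a change of 0.24 ± 0.05 (SE; adjusted p = 0.023). TMED3 in LNCaP was 11.02, 10.92 and 11.11 with siNTC and 11.38, 11.34 and 11.25 with siLSD1, a change of 0.30 ± 0.07 (SE; adjusted p = 0.014). Treated TMED3 arrays were all above the controls; the call was lost without siLSD1 replicate 3 or siNTC replicate 1, 2 or 3 (adjusted p = 0.051 to 0.082) in C42B, and the call was lost without siLSD1 replicate 1 or 2 (adjusted p = 0.052 to 0.053) in LNCaP. With the mean of its probe sets, TMED3 passed in none of the 3 comparisons (adjusted p = 0.12, 0.18 and 0.23). TMED2 rose by 0.20 ± 0.04 with DHT and differed by 0.07 ± 0.05 and 0.10 ± 0.11 with siLSD1 in C42B and LNCaP.

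The KDEL receptors bind the tail signal of escaped ER chaperones and return them by COPI vesicles. KDELR3 was 9.46, 9.41, 9.38 and 9.45 with vehicle and 10.11, 10.13, 10.01 and 10.07 with DHT, a change of 0.65 ± 0.04 (SE; adjusted p = 2.6e-06). KDELR3 in C42B was 9.10, 9.10 and 9.16 with siNTC and 9.12, 9.19 and 9.24 with siLSD1, a difference of 0.06 ± 0.05. KDELR3 in LNCaP was 7.12, 7.06 and 6.96 with siNTC and 7.05, 7.07 and 6.98 with siLSD1, a difference of -0.01 ± 0.07. The DHT arrays stood clear of vehicle, while the siRNA groups overlapped in both lines. KDELR1 was 10.86, 10.76, 10.82 and 10.80 with vehicle and 10.93, 10.97, 10.96 and 10.96 with DHT, a change of 0.15 ± 0.04 (SE; adjusted p = 0.016). KDELR1 in C42B was 11.33, 11.34 and 11.24 with siNTC and 11.41, 11.44 and 11.42 with siLSD1, a difference of 0.12 ± 0.05 that did not pass. KDELR1 in LNCaP was 11.04, 11.14 and 11.20 with siNTC and 11.41, 11.38 and 11.26 with siLSD1, a change of 0.22 ± 0.07 (SE; adjusted p = 0.047). KDELR1 groups did not overlap, and the call was lost without siLSD1 replicate 1, 2 or 3 or siNTC replicate 1 or 2 (adjusted p = 0.051 to 0.14) in LNCaP.

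LMAN1 (ERGIC-53) is a lectin that, with MCFD2, carries coagulation factors out of the ER. MCFD2 was 10.43, 10.44, 10.44 and 10.35 with vehicle and 11.20, 11.21, 11.20 and 11.29 with DHT, a change of 0.81 ± 0.04 (SE; adjusted p = 5.4e-07). MCFD2 in C42B was 10.12, 10.18 and 10.17 with siNTC and 10.08, 10.27 and 10.23 with siLSD1, a difference of 0.04 ± 0.06. MCFD2 in LNCaP was 9.22, 9.26 and 9.27 with siNTC and 9.25, 9.25 and 9.27 with siLSD1, a difference of 0.01 ± 0.05. The DHT arrays were far above vehicle, and the siRNA groups overlapped in both lines. LMAN1 rose with DHT by 0.48 ± 0.04 (SE; adjusted p = 1.1e-05) and did not pass with siLSD1 (0.05 ± 0.05 in C42B and 0.15 ± 0.07 in LNCaP). LMAN2, a related lectin, rose with DHT by 0.26 ± 0.04 and did not pass with siLSD1 (0.10 ± 0.06 and 0.17 ± 0.07). SEC22B, a SNARE for fusion between ER and Golgi membranes, rose with siLSD1 in C42B by 0.23 ± 0.06, where the call was lost without siLSD1 replicate 2 or 3 or siNTC replicate 1, 2 or 3 (adjusted p = 0.071 to 0.13), and did not pass with DHT (0.17 ± 0.08) or in LNCaP (-0.26 ± 0.16). In LNCaP its siNTC replicate 1 stood below the other siNTC arrays, and without it SEC22B passed as a fall of -0.47 (adjusted p = 0.0015). Its second probe set, which was dim, went the other way in LNCaP and rose by 0.59 ± 0.16 (adjusted p = 0.028).

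The test of the difference between the lines, over the 12 siRNA arrays, passed for 2 of the 35 genes, where it passed for 11.6% of all genes. SEC24D rose more in C42B than in LNCaP, by 0.71 ± 0.17 on the log2 scale (SE; 95% interval 0.34 to 1.08; adjusted p = 0.018), which was 0.051 without C42B siLSD1 replicate 2. COPB2 fell in LNCaP and did not pass in C42B, and the difference was 0.24 ± 0.07 (SE; adjusted p = 0.042). The call was lost without C42B siLSD1 replicate 2 or 3 or C42B siNTC replicate 1 or 3 or LNCaP siLSD1 replicate 1, 2 or 3 or LNCaP siNTC replicate 2 or 3 (adjusted p = 0.069 to 0.11). For the other genes that passed in one line only, the difference itself did not pass, so they are not shown to respond differently. Besides SEC24B, it passed for ARF4 with trend and robust (adjusted p = 0.039), for COPE without LNCaP siNTC replicate 3 (0.031) and for SEC22B without LNCaP siNTC replicate 1 (3.6e-04). For SAR1A, called in neither line, it passed with the replicate block (0.019) and without LNCaP siNTC replicate 1 (0.024). Other genes that missed the threshold within a line also passed in some fits, robust with trend among them unless stated: SEC24C, COPB1, COPE and KDELR1 in C42B (adjusted p = 0.012 to 0.046), and SEC23B, COPZ1, ARF4, LMAN1 and, with all 20 arrays only, LMAN2 in LNCaP (0.010 to 0.043). SEC22B passed with DHT without DHT replicate 3 (0.049). The intervals leave room for differences: for KDELR1 the 95% interval was -0.28 to 0.08 and for SAR1B it was -0.004 to 0.35. These intervals are not adjusted over genes. They lay clear of 0 for SEC24B (-0.38 to -0.08), COPE (-0.47 to -0.03), SEC22B (0.08 to 0.90) and SAR1A (0.06 to 0.67), whose differences did not pass.

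Across the 3 comparisons, which share no arrays, 8 genes rose in all: SEC24D and SEC31A of COPII, COPG1 of COPI, ARFGAP3, and the p24 adaptors TMED3, TMED5, TMED9 and TMED10. Another 8 rose in 2 comparisons (SAR1B, SEC23B, SEC24A, SEC24B, SEC24C, COPE, ARF4 and KDELR1) and 16 rose in 1. SEC23A, SEC23IP and COPG2 rose in none. Among the 8 that rose in all, only SEC31A and ARFGAP3 kept the call in every other fit of each comparison. With siLSD1, some fits lost the calls of SEC24D, COPG1, TMED3, TMED5 and TMED9 in LNCaP. In C42B some lost those of COPG1, TMED3, TMED5 and TMED10 with siLSD1, and that of TMED3 with DHT. The shares of all genes that rose in 2 or in all 3 comparisons are not given here. Of the 14 genes that rose with siLSD1 in C42B, 12 also rose with DHT (85.7% of the 14 and 40% of the 30), and 85.7% is also the share of all 35 that rose with DHT. The 12 that rose in LNCaP all rose with DHT (100% and 40%), beside the same 85.7%. The siLSD1 rises of the lines shared 8 genes (57.1% of the C42B and 66.7% of the LNCaP genes), where 34.3% of the 35 rose in LNCaP and 40% in C42B. MCFD2, KDELR3, LMAN1 and SEC13 had clear DHT rises of 0.43 to 0.81 and siLSD1 changes between -0.05 and 0.15 that did not pass, but the difference between the DHT and siLSD1 effects was not tested.

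The rest of ER-Golgi transport was followed through 84 other measured genes: tethers, SNAREs, the TRAPP and COG complexes, GTPases with coat regulators, and other cargo adaptors. With DHT 31 rose (36.9%, against 13.4% of all genes) and 9 fell (10.7% against 19.4%), with a median change of 0.005. Rises were led by the golgin GOLGA4 (0.73 ± 0.06), the cargo receptor SURF4 (0.73 ± 0.04) and COG5 of the COG tether (0.71 ± 0.15), and falls by TRAPPC13 (-0.65 ± 0.09) and TRAPPC6B (-0.57 ± 0.04) of the TRAPP complex and the p24 gene TMED4 (-0.30 ± 0.04). With siLSD1 in C42B 9 rose (10.7%, near the 8.66% of all genes) and 4 fell (4.76% against 9.39%), with a median of 0.018, and 6 passed without siLSD1 replicate 2 or without replicate 3. GOLGA2 (0.53 ± 0.11), COG5 (0.50 ± 0.08) and TRAPPC13 (0.42 ± 0.09) rose most, while TMED8, ZW10 and NBAS fell by 0.31, 0.27 and 0.21 on the log2 scale. In LNCaP 21 rose (25% against 13.4%) and 8 fell (9.52% against 12.5%), with a median of 0.087, and 18, 16 and 15 passed without siLSD1 replicates 1, 2 and 3. COG5 (0.60 ± 0.06), the golgin GCC2 (0.52 ± 0.06) and COG3 (0.49 ± 0.07) rose most, and YIPF5 (-0.38 ± 0.07), ERGIC2 (-0.38 ± 0.07) and RINT1 (-0.36 ± 0.09) fell most. COG5 was thus among the largest rises in all 3 comparisons, and TRAPPC13 rose with siLSD1 in C42B and fell with DHT.

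The other probe sets of the coat and cargo genes were tested as a check, adjusted over all probe sets. With DHT, 31 of the 50 other probe sets rose and 1 fell, and of the 22 genes that rose and had another probe set, 18 rose in one of those too. With siLSD1 in C42B, 5 of the 50 rose and 1 fell, and the rise was seen in another probe set for 5 of 12 genes. In LNCaP, 7 rose and 3 fell, and of the 8 genes that rose and had another probe set, 1 (KDELR1) rose in it (3 of the 8 at an unadjusted p under 0.05). The other 6 probe sets that rose in LNCaP belonged to genes whose brightest probe set did not pass: SEC23B, SEC24A, SEC23IP, COPB1 and, dim in both groups, COPG2 and SEC22B. Over all genes, by the brightest probe set, 13.4% rose with DHT, 8.66% with siLSD1 in C42B and 13.4% in LNCaP. The 5 and 7 of 50 other probe sets that rose with siLSD1 were thus near the shares of all genes. The shares over all probe sets are not given here. With the probe sets of a gene averaged, SEC24D, COPB2, COPE, TMED3, TMED5 and TMED9 no longer passed in LNCaP, TMED3, TMED5, TMED10 and SEC22B no longer passed in C42B, and COPA, COPB1, COPZ2 and TMED3 no longer passed with DHT. SEC24D had 2 others, both dim with siRNA. With vehicle both were dim too (5.32 and 4.16), and with DHT the first reached 6.91 and the second stayed dim at 5.11. The rises with DHT, 1.59 and 0.95, thus started from dim levels. With siLSD1 these 2 probe sets changed by 0.19 (not passed) and 0.25 (passed) in C42B, and by -0.11 and 0.06 (neither passed) in LNCaP. SEC23A fell with DHT in its second probe set as well (-0.31 ± 0.06). TMED5 was the one gene whose brightest probe set passed one way and another the opposite way, with a fall of 0.33 in LNCaP. SAR1A fell with siLSD1 in one other probe set in C42B (-0.45 ± 0.07) and in both others in LNCaP (-0.37 ± 0.07 and -0.44 ± 0.07).

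**Figure D5:**
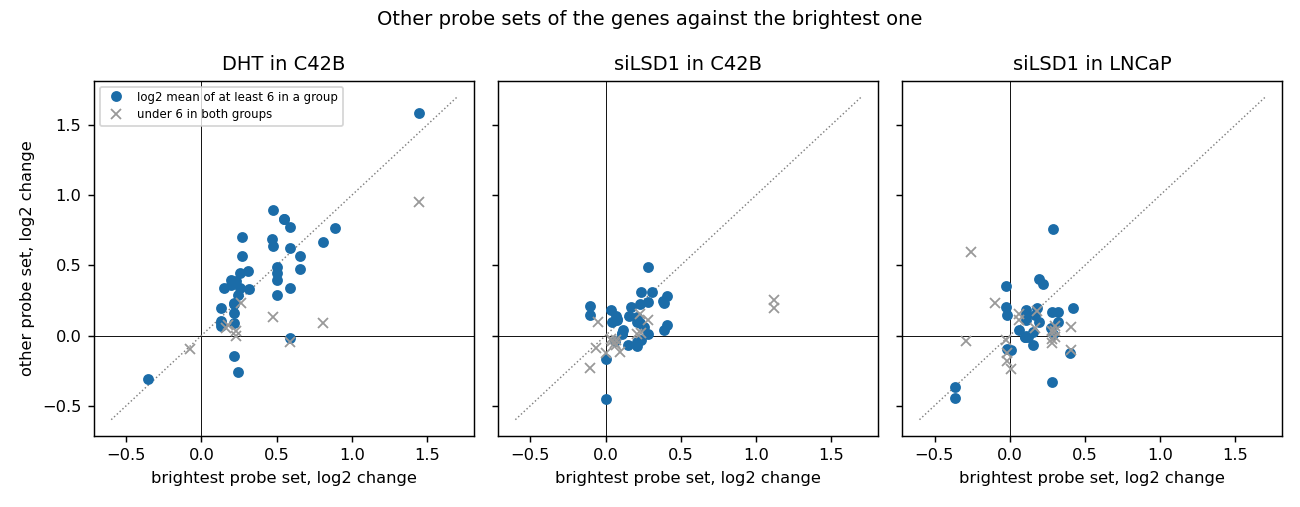
Log2 change of each other probe set (y axis) against that of the brightest probe set of the same gene (x axis), in the 3 comparisons; crosses are dim in both groups and the dotted line marks equal change. With DHT most points lie in the upper right, SEC24D's at 1.59 and 0.95 among them; with siLSD1 in LNCaP the points scatter around 0.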

How the data were processed

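RNA of 20 cell line cultures was measured on Affymetrix 3′ arrays of 54675 probe sets. The deposited values are linear intensities (4.34 to 36333), which the authors made with RMA (affy), per the submitters' processing notes. No version of either is given in the sources used here. The labels list 2 labelling protocols, with no word on which samples had which. Of the probe sets, 41091 name 1 gene, 1801 several and 11721 none, and 62 are controls. The brightest 1-gene probe set stood for each of 19775 genes, and log2 was taken. Each comparison had its own limma fit (version 3.58.1, under R 4.3.3; lmFit, then eBayes) without covariates, adjusted by Benjamini-Hochberg over all genes. No member was dim (group mean under 6) in any group. The fit was tested on simulated data. Python 3.11.15 with pandas 2.3.3, numpy 2.4.6 and matplotlib 3.10.9 made the tables and plots.

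The members and lists were chosen with earlier results of these data known. Every member is named, and values in every array are given for the 19 that passed in 2 or more comparisons or changed by at least 0.5 (log2) in a call. SEC23A was added to these after its values were seen. Of the other ER-Golgi genes, up to 3 per direction and comparison are named. Results of the p24 family genes TMED1, TMED4, TMED6 and TMED8 are given besides, outside this rule. Of the 86 listed, 2 had no 1-gene probe set. Alternatives were the probe set mean, median centring, quantile normalization, bright genes only, a joint fit of all 20 arrays, a replicate block, a robust eBayes with trend, and each array left out in turn. Their counts for the other ER-Golgi genes were added after seeing the data. Promoter windows and coordinates are RefSeq's for GRCh38.p14. The number of arrays limits the precision.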

Additional observations from a re-analysis of the deposited data

Results flagged for a closer look

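In 5 of the 70 groups of 4 arrays examined, one array stood far from the other 3 relative to the group's range, and chance flags about 1 in 20 groups. COPB1 was 13.28 on DHT replicate 4 against 13.21 to 13.22 on the others. COPG2 was 8.19 there against 8.24 to 8.25. MCFD2 was 11.29 on the same array against 11.20 to 11.21. SEC24B was 10.72 on vehicle replicate 4 against 10.56 to 10.57, and TMED2 was 13.52 on vehicle replicate 2 against 13.63 to 13.64. These gaps are small beside the DHT changes of MCFD2 and SEC24B, whose calls held without each of those arrays.

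The effect of siLSD1 differed between the lines in a direct test for 2 of the 35 genes, where it passed for 11.6% of all genes. For SEC24D it was 1.12 in C42B and 0.41 in LNCaP on the log2 scale, a difference of 0.71 (adjusted p = 0.018), which did not pass without C42B siLSD1 replicate 2 (0.051). For COPB2 it was -0.05 in C42B and -0.29 in LNCaP, a difference of 0.24 (adjusted p = 0.042), and it no longer passed without 1 array for 9 of the 12 arrays (adjusted p = 0.069 to 0.11 where lost). The lines were also kept in different serum, so line and serum cannot be told apart.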

How the results depend on the processing

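No member reversed under an alternative. With DHT, 26 of the 31 calls held under every alternative, and 27 to 31 genes rose (29 to 31 with 1 array left out). The median change was 0.32, 0.36 with the probe set mean and 0.38 with median centring (0.30 to 0.34 with 1 array left out). With siLSD1 in C42B, 5 of the 14 calls held throughout: 10 to 18 genes rose, or 5 to 13 with 1 array left out. The number that fell was 1 with all 20 arrays in 1 fit and 0 to 1 with 1 array left out, and the median was 0.078 with the probe set mean. In LNCaP, 4 of the 13 calls held throughout: 9 to 18 genes rose, or 7 to 10 with 1 array left out. The number that fell was 2 with bright genes only, quantile normalization, median centring, the replicate block, trend and robust, or all 20 arrays, and 1 to 3 with 1 array left out. The LNCaP median was 0.11 with the probe set mean and 0.12 with median centring (0.12 to 0.15 with 1 array left out). Of the other ER-Golgi genes, 13 passed in C42B, but 21 with bright genes only, 27 with trend and robust, 23 with all 20 arrays and 6 to 19 with 1 array left out. In LNCaP 29 passed, but 45 with all 20 arrays and 15 to 33 with 1 left out, and with DHT 40, or 34 to 38 with 1 left out. The difference between the lines passed for 1 gene with quantile normalization, 4 with trend and robust, and 0 to 4 with 1 array left out. The cause of these shifts was not tested. Fits with an array left out or with bright genes only also hold fewer arrays or genes.

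With the replicate number as a block (replicate block), 29 genes rose with DHT, 10 with siLSD1 in C42B and 11 in LNCaP, and the difference passed for 2. Over all genes, deviations of same-numbered arrays correlated at -0.075 to 0.099 in the androgen experiment. With siRNA they correlated at -0.096 to 0.18 in C42B and -0.019 to 0.20 in LNCaP. For arrays with unlike numbers the ranges were -0.10 to 0.15, -0.24 to 0.14 and -0.20 to 0.19, in the same order. These weak correlations cannot show whether arrays were paired. In LNCaP the block made SAR1A pass as a fall (adjusted p = 0.0056) and SEC24A as a rise (0.016), while SEC24C and KDELR1 no longer passed.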
